A study of Mus musculus with 23 samples.

Results

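The genes described here are 9 genes by which fields of the hippocampus and types of forebrain projection neuron are told apart: Prox1, Calb1, Zbtb20, Bcl11b, Mef2c, Meis2, Wfs1, Etv1 and Fezf2. They were chosen by name, with earlier results of these data known. Their identifiers were matched in the GRCm39 annotation, which gave 9 of the 56941 genes in the count tables. The libraries are bulk RNA-seq of primary hippocampal neurons from newborn (P0) homozygous NEDD8cKO mice, which carry loxP sites around exons 2 and 3 of Nedd8. Nedd8 is a small ubiquitin-like protein that is attached to cullins and other proteins. On the day after plating, the cultures received a lentivirus that expressed either red fluorescent protein alone (RFP, the control) or CRE recombinase tagged with RFP (CRE, the Nedd8 knock-out), both from the Synapsin1 promoter, and RNA was taken after 12 days in culture by the sample labels and 1 day later by the methods of the study. Both groups therefore carried the floxed alleles and a lentivirus, and the promoter that drove CRE is one of neurons; recombination in the glia of the same dish was not measured here. Of 23 libraries (12 CRE, 11 RFP), 2 CRE libraries were removed as in the methods of the study, so that 10 CRE and 11 RFP libraries were compared. Each library is named by its group, a number from 1 to 3 in its title, here called the set, and its replicate number, as in CRE 3-2. The libraries come from 3 animals or biological replicates, a number that the 3 sets match, although the sources used here do not say in words that a set is such a replicate. Libraries of 1 set may then share their source, and p-values over libraries may measure a spread that is in part technical and be too small, so results with the libraries of each set summed are given as well.

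As background, the hippocampus is built from the dentate gyrus, whose granule cells send mossy fibres to CA3, and from the pyramidal cell fields CA3, CA2 and CA1. Prox1 is a homeodomain transcription factor that granule cells need for their identity, and Calb1 encodes calbindin, a calcium-binding protein abundant in mature granule cells. Zbtb20 is a zinc-finger repressor needed for hippocampal and CA1 development, and Wfs1, an endoplasmic reticulum membrane protein, marks CA1 pyramidal cells. Bcl11b (CTIP2) and Fezf2 specify subcerebral projection neurons of the cortex, and Bcl11b is also found in CA1 and granule cells. Etv1 (ER81), an ETS factor, marks layer 5 neurons. Mef2c is a MADS-box factor that regulates synapse number, and Meis2 is a TALE homeodomain factor of striatal, olfactory and other forebrain neurons. Several of these genes also mark other cells: Prox1 and Calb1 occur in interneurons and Zbtb20 in astrocytes.

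The 9 genes lie on 8 autosomes and differ in base composition, with a GC content of their exons from 37.5% in Calb1 to 55.6% in Fezf2. The stretch of 250 bases before the start of the canonical transcript is shown for the gene with the largest change, Etv1, for Bcl11b, and for Prox1, which is the dentate factor and 1 of 2 members with a proneural E-box in that window. The E-box searched was CAGATG on either strand, which is bound by factors of the NeuroD type. The windows were read from GRCm39 and are written 5′ to 3′ on the strand of the gene, and contain no annotated exon, although other transcripts of Etv1 and Prox1 start further upstream. They are chr12:38829831-38830080 (plus strand) for Etv1, chr12:107970418-107970667 (minus strand) for Bcl11b and chr1:189903209-189903458 (minus strand) for Prox1, and capitals mark the E-box, which reads CATCTG on this strand.
Etv1: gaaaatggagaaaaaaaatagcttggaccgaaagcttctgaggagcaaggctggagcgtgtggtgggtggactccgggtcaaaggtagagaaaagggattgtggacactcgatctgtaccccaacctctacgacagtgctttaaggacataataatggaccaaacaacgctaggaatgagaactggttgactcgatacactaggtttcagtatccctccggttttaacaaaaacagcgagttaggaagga
Bcl11b: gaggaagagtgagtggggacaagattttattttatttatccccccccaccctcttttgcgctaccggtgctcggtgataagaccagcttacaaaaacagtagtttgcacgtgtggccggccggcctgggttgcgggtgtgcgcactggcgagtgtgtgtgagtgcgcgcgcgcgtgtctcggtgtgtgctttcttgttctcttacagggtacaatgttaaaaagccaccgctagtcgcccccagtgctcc
Prox1: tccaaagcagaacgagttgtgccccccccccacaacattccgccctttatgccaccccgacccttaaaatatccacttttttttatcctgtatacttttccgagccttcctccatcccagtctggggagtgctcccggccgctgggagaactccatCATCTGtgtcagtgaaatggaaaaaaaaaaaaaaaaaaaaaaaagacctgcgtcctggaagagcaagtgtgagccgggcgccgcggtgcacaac
The E-box of Prox1 starts 94 bases before the transcript start, and that of Calb1 220 bases before it. The motif was thus in 2 of 9 members, against 11.2% of the windows of 14440 tested genes. A simplified form of the MEF2 motif (CTA and TAG with 4 bases of any kind between them) and the TATA box TATAAA were searched on either strand. Neither was in any of the 9 windows, and they were in 3% and 7.47% of all windows. Other forms of the MEF2 motif were not counted. A match of letters shows no binding, and windows of 250 bases leave distal elements out.

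The deletion was seen in every library compared. Nedd8 lay between 44.1 and 76.0 CPM (counts scaled to a common library size) in the RFP libraries and between 5.92 and 18 CPM in the CRE libraries, and the groups did not overlap (log2 fold change −2.41, SE 0.16, adjusted p = 1.79e-12). What part of the remaining counts came from exons that were not deleted or from cells without CRE was not tested. Total counts were 8923280 to 13345552 in the CRE libraries compared and 7635735 to 17112815 in the RFP libraries, so that the 9 genes were read with 101 to 6629 counts per library. Throughout, a level is in CPM scaled by the trimmed mean of M values (TMM), a fold change is CRE against RFP from edgeR's quasi-likelihood test, and a gene is called at a Benjamini-Hochberg adjusted p under 0.05 over the 14482 genes tested.

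All 9 members were tested. After TMM scaling 8 were lower in CRE, 0 were higher and 1, Calb1, was not called; relative to pan-neuronal genes 1 was lower, as described further on. With the libraries of each set summed, 3 sums against 3, 6 members were lower, where 11.7% of all genes were, and Mef2c (adjusted p = 0.0642) and Meis2 (0.0549) were not called. In the fit over libraries 17.8% of all genes tested were called lower and 20.2% higher. The members were chosen with earlier results of these data known, so this contrast is a description and no independent test. The members' log2 fold changes ran from −0.36 to −1.40 with a median of −0.55, beside a median of 0.02 over all genes. No member separated the groups completely, which 5.67% of all genes did. In a bulk sample, fewer cells of a type and less RNA per cell cannot be told apart.

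**Figure D1:**
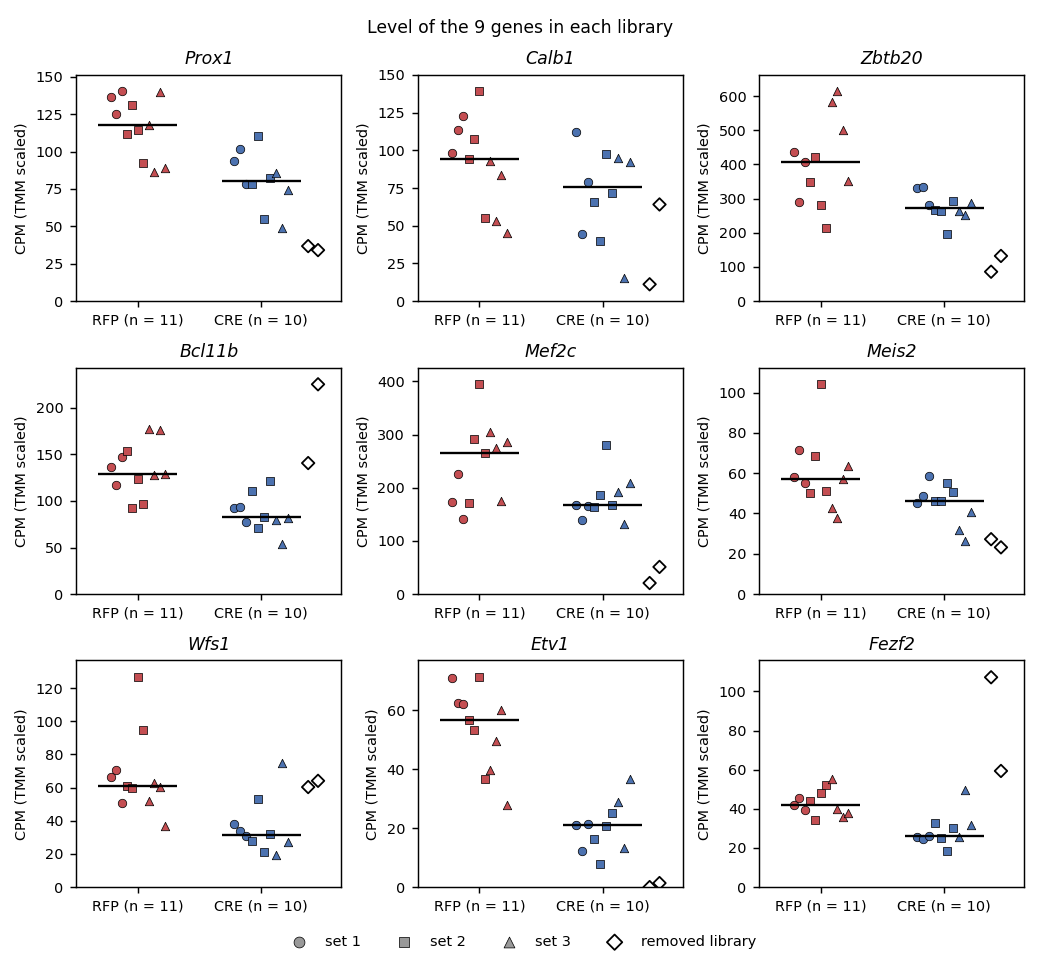
Level of each gene in CPM (linear axis from 0) in every library, with RFP libraries on the left and CRE libraries on the right, the symbol giving the set and the bar the median. Open diamonds are the 2 removed CRE libraries. After TMM scaling the median is lower in CRE for all 9 genes and the groups overlap in each, with the clearest step for Etv1, whose medians are 56.6 and 20.9 CPM.

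Among the dentate genes, Prox1 was lower in CRE and Calb1 was not called. Prox1 ranged from 86.2 through a median of 117 to 140.2 CPM in the RFP libraries, and from 48.6 through 80.6 to 111 CPM in the CRE libraries. Of the 10 CRE libraries 7 were below every RFP library and all 10 were below the RFP median. Prox1 decreased by 30.7% (log2 fold change −0.53, SE 0.12, adjusted p = 0.00107). Calb1 spread more widely within each group. It ranged from 44.9 through 94.0 to 139 CPM in RFP and from 15.2 through 75.4 to 112 CPM in CRE, with 3 CRE libraries below the RFP range. Its log2 fold change of −0.36 had a 95% interval from −0.89 to 0.17 (adjusted p = 0.327). This interval holds both no change and the point estimates of 6 of the 8 members called lower, all but Wfs1 and Etv1.

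Zbtb20, described above as needed for hippocampal and CA1 development, and the CA1 marker Wfs1 were both lower in CRE after TMM scaling. Zbtb20 ranged from 213 through 406 to 614 CPM in RFP and from 196 through 274 to 334 CPM in CRE. Only 1 CRE library was below the lowest RFP library, and 8 RFP libraries were above the highest CRE library. Zbtb20 decreased by 31.5% (log2 fold change −0.55, SE 0.14, adjusted p = 0.00387). Wfs1 ranged from 37.0 through 61.2 to 127 CPM in RFP and from 19.5 through 31.3 to 75.1 CPM in CRE. Here 7 CRE libraries were below every RFP library, and the highest, CRE 3-2, was above the RFP median. Wfs1 decreased by 46.9% (log2 fold change −0.91, SE 0.22, adjusted p = 0.00208).

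Wfs1 shares exon bases with a gene on the opposite strand, which bears on its value. Of its 10545 exon bases, 2660 (25.2%) are also exon of Ppp2r2c, a brain regulatory subunit of protein phosphatase 2A. Ppp2r2c had the higher level per length, with a median of 114 CPM per kb of exon in RFP against 5.81 for Wfs1, and was itself lower in CRE (log2 fold change −0.97, SE 0.08, adjusted p = 3.33e-10) without overlap of the groups. The strand setting of the counting is not given in the sources used here, so reads of the shared bases cannot be assigned to either gene, and their part in the Wfs1 value was not tested. Prox1 shares 976 bases (10.9%) with Prox1os on the opposite strand, which had a median of 1.89 CPM in RFP, and Meis2 shares 716 bases (5.52%) with G630016G05Rik, at 0.83 CPM. The shared share for Zbtb20 was 0.52% or less per gene, and no shared exon bases were found for the other 5 members.

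The 3 members described above as genes of cortical projection neurons were lower in CRE after TMM scaling, and Etv1 changed most of the 9 genes. The class as a whole did not fall: of 19 tested factors in the list given further on, 4 were higher and 5 lower. Etv1 ranged from 27.9 through 56.6 to 71.2 CPM in RFP and from 7.68 through 20.9 to 36.6 CPM in CRE. Only 2 CRE libraries reached the RFP range, and 10 of 11 RFP libraries were above every CRE library. Etv1 decreased by 62.2% (log2 fold change −1.40, SE 0.21, adjusted p = 8.69e-06), and 1.75% of all genes tested had a lower log2 fold change. Bcl11b ranged from 91.9 through 129 to 177 CPM in RFP and from 53.3 through 82.2 to 121 CPM in CRE. It decreased by 35.7% (log2 fold change −0.64, SE 0.13, adjusted p = 0.000185), with 6 CRE libraries below every RFP library. Fezf2, which acts upstream of Bcl11b in the cortex, ranged from 34.4 through 41.8 to 55 CPM in RFP and from 18.4 through 25.9 to 49.7 CPM in CRE. All CRE libraries but CRE 3-2 were below the RFP range, and Fezf2 decreased by 32.7% (log2 fold change −0.57, SE 0.13, adjusted p = 0.000965).

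Mef2c and Meis2 had smaller changes that depended on single libraries. Mef2c ranged from 141 through 265 to 395 CPM in RFP and from 132 through 168 to 280.2 CPM in CRE, where CRE 2-3 stood above the rest. It decreased by 26.7% (log2 fold change −0.45, SE 0.16, adjusted p = 0.0266). The call was lost without CRE 3-2 (adjusted p = 0.0510) or without RFP 2-3 (0.0540). Meis2 ranged from 37.5 through 57.0 to 104 CPM in RFP and from 26.6 through 46.1 to 58.4 CPM in CRE, and 2 CRE libraries were below the RFP range. It decreased by 25.3% (log2 fold change −0.42, SE 0.15, adjusted p = 0.0252). Without RFP 2-3, the library with the highest Meis2, the adjusted p was 0.0645. With any single library left out, the direction of all 9 genes held, and no other member lost its call.

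Per kb of exon, the median levels of the 9 genes in RFP ran from 4.04 to 15.5 CPM. Mef2c had the highest median (15.5 CPM per kb), followed by Bcl11b (13.7), Calb1 (13.3), Prox1 (13.1), Fezf2 (11.3) and Zbtb20 (10.9). Wfs1 (5.81), Meis2 (4.40) and Etv1 (4.04) formed the lower end. In CRE the median of Etv1 was 1.49 CPM per kb and those of the 6 genes with the higher RFP levels were 7.01 to 10.6. These lengths add all annotated exons, 37358 bases for Zbtb20, which lowers the value of genes with many alternative exons.

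Within each set of libraries the fitted difference was below 0 for every member, although that of Calb1 in set 3 was −0.02 (SE 0.50), with medians of 92.4 CPM in CRE and 68.4 CPM in RFP. The 27 estimates, 9 genes in 3 sets, had medians of −0.55 in set 1 (3 CRE, 3 RFP), −0.49 in set 2 (4 and 4) and −0.61 in set 3 (3 and 4). In each set 3 members were called lower, where 8.6%, 10.8% and 7.28% of all genes were. In set 1 these were Bcl11b (log2 fold change −0.61), Etv1 (−1.83) and Fezf2 (−0.73). In set 2 they were Wfs1 (−1.35), Etv1 (−1.65) and Fezf2 (−0.74), and in set 3 Prox1 (−0.64), Zbtb20 (−0.94) and Bcl11b (−1.09).

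Whether the CRE effect differed between the sets was tested by the interaction of group and set. In edgeR it was called for 0 of the 9 members, with adjusted p-values from 0.383 to 0.964, and for 0.311% of all genes. At an unadjusted p under 0.05 there were 2 members. Bcl11b fell by 0.28 in set 2 and by 1.09 in set 3 on the log2 scale (unadjusted p = 0.0200, adjusted 0.383). Zbtb20 fell by 0.26 in set 1 and by 0.94 in set 3 (unadjusted p = 0.0456, adjusted 0.491). Etv1 had the opposite order, with a fall of 1.83 in set 1 and of 0.75 in set 3 (unadjusted p = 0.0886). With a whole set left out, Zbtb20 lost its call without set 3 (adjusted p = 0.0701) and Wfs1 without set 2 (0.0773). Mef2c was not called without set 2 (0.0723) or set 3 (0.120), and Meis2 not without set 1 (0.0672) or set 2 (0.105). Without set 2, 5 of the 9 members were called lower, and 11.8% of all genes were.

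**Figure D2:**
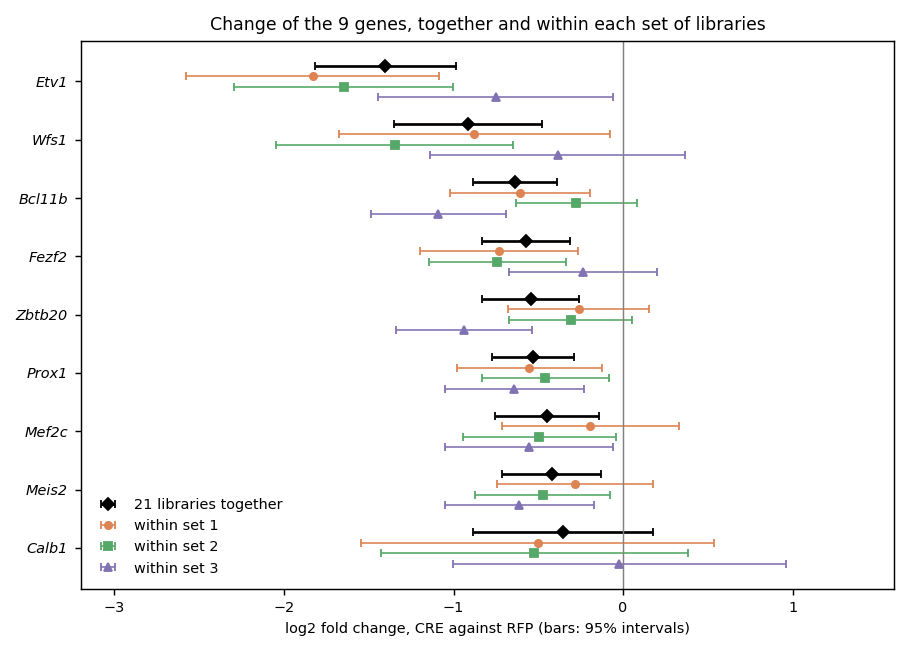
Log2 fold change of each gene, CRE against RFP (horizontal axis), from the 21 libraries together and within each of the 3 sets. Bars are 95% intervals. All 36 points lie below 0, and Etv1 has the largest fall in the joint fit and in sets 1 and 2, where it fell by 1.83 and 1.65 on the log2 scale.

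How far the genes fell depended on what the libraries were scaled to. TMM scaling puts the median of all genes near 0 (0.02). Scaling to the summed counts of 12 pan-neuronal genes moved that median to 0.53, and scaling to total counts moved it to 0.13. The pan-neuronal genes were themselves lower in CRE: 7 of 12 fell, 1 rose, their median log2 fold change was −0.51 and their summed level was 4019 to 6751 CPM in CRE against 6264 to 8133 CPM in RFP. Relative to those genes Etv1 still fell by 0.93 on the log2 scale (adjusted p = 5.76e-05) and was the 1 member called, where 4.05% of all genes were called lower. The other 8 members ranged from −0.32 (Wfs1) to 0.11 (Calb1), and Prox1 (0.003), Calb1, Mef2c (0.02) and Meis2 (0.07) changed sign, without a call. Rbfox3, the neuronal nuclear antigen NeuN, fell by 1.13 (adjusted p = 6.89e-07), Dcx, a microtubule protein of young neurons, fell by 0.98 (adjusted p = 2.5e-07), and Nefm, a neurofilament subunit, rose by 0.55 (adjusted p = 0.0338), a call that was lost in 9 of the 21 fits that left out 1 library (adjusted p up to 0.120) and without set 1 or set 2 (up to 0.200). Under total counts 6 members were called lower (12.2% of all genes), and Mef2c (adjusted p = 0.0903) and Meis2 (0.0939) were not.

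**Figure D3:**
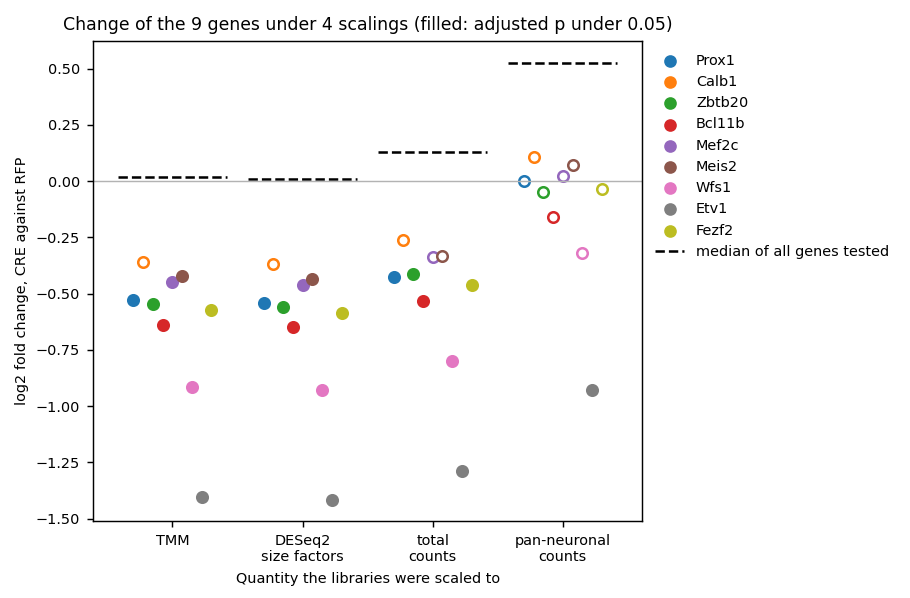
Log2 fold change of each gene, CRE against RFP (vertical axis), under TMM, DESeq2 size factors, total counts and scaling to 12 pan-neuronal genes. Filled points are called at adjusted p under 0.05 and dashed lines are the median of all genes tested under that scaling (0.02, 0.01, 0.13 and 0.53). The points and the line shift together between scalings, and under pan-neuronal scaling only Etv1 is filled.

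Further genes of the same fields were taken from lists chosen by name, with earlier results known, and are described by counts. Over all genes tested 17.8% were lower and 20.2% higher. Of 10 tested dentate granule genes 5 were lower and 1 was higher in CRE, with a median log2 fold change of −0.76. The lower genes included C1ql2, a secreted protein of mossy fibre synapses (log2 fold change −1.97, SE 0.32, adjusted p = 1.92e-05), and Rfx3, a factor of cilia genes (−0.82, SE 0.15, adjusted p = 0.000124). Stxbp6, which binds SNARE proteins, was higher (1.34, SE 0.24, adjusted p = 0.000123). Of 8 CA1 genes 3 were lower, among them Lypd1, a modulator of nicotinic receptors (−1.45, SE 0.34, adjusted p = 0.00164), and Fibcd1, a membrane receptor (−1.08, SE 0.30, adjusted p = 0.00548). The Golgi mannosidase Man1a was the 1 CA1 gene that was higher (0.93, SE 0.15, adjusted p = 8.15e-06), and the list's median was −0.41. Lypd1 lost its call without set 2 (adjusted p = 0.130) and Fibcd1 without set 1 or set 2 (up to 0.122), and the count of lower CA1 genes was 1 in the fit without set 1 and 1 in the fit without set 2.

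Of 7 tested CA2 genes 3 were lower and 1 was higher, with a median of −0.07. Necab2, a neuronal calcium-binding protein, fell from a median of 60.5 to 13.8 CPM without overlap of the groups (log2 fold change −1.94, SE 0.17, adjusted p = 6e-10), and Rgs14, a regulator of G-protein signalling that limits plasticity in CA2, fell by 1.49 (SE 0.34, adjusted p = 0.000781). Cacng5, an auxiliary subunit of AMPA receptors, rose by 0.94 (SE 0.20, adjusted p = 0.000396). Of 8 tested CA3 and mossy cell genes 4 were lower and 0 higher, with a median of −0.86. They included Grik4, a kainate receptor subunit (−1.24, SE 0.19, adjusted p = 8.47e-06), and Cdh24, a cadherin (−1.64, SE 0.28, adjusted p = 2.89e-05). Under pan-neuronal scaling, where 58.8% of all genes were called higher, the counts became 3 higher and 2 lower for dentate genes, 3 and 1 for CA1, 3 and 2 for CA2, and 1 and 4 for CA3 and mossy cell genes.

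Factors that act earlier, in patterning the medial pallium from which the hippocampus forms, moved both ways after TMM scaling. Of 9 tested, 3 were higher and 2 lower, with a median of 0.10, and under pan-neuronal scaling 7 were higher and 1 lower. With all 23 libraries 4 were higher and 0 lower. With the trend on GC content, described further on, removed in each of the 23, the counts were 3 higher and 2 lower. Dmrta2 (1.26, SE 0.18, adjusted p = 2.44e-06) and Gli3 (1.28, SE 0.19, adjusted p = 3e-06) rose, and Dmrta2 did so without overlap of the groups, from a median of 8.76 to 25.3 CPM. Emx1, a dorsal homeobox factor, fell by 0.99 (SE 0.25, adjusted p = 0.00204). Of 19 tested factors of cortical projection neurons 4 were higher and 5 lower, with a median of −0.03, and under pan-neuronal scaling 12 were higher and 2 lower. Rorb (1.5, SE 0.17, adjusted p = 5.27e-08) and Otx1 (1.61, SE 0.20, adjusted p = 1.59e-07) rose, while Bhlhe22, a bHLH factor of upper-layer, hippocampal and other neurons, fell from a median of 337 to 134 CPM without overlap (−1.31, SE 0.09, adjusted p = 7.98e-12). Crym, a thyroid hormone-binding protein in the same list, fell by 2.05 (SE 0.28, adjusted p = 3.55e-06).

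Some paralogs and binding partners of the members were higher and others lower after TMM scaling. Of 13 tested, 2 were higher, 3 were lower and 8 were not called, with a median of −0.07. Over all genes 20.2% were higher and 17.8% lower. In the fit without set 2, 0 of the 13 were higher and 3 lower. Bcl11a, the paralog of Bcl11b, fell by 0.54 (SE 0.08, adjusted p = 5.33e-06). Calb2, calretinin, fell by 1.56 (SE 0.25, adjusted p = 3.9e-05) from a median of 128 to 50.1 CPM without overlap of the groups. Calb2 is also counted as lower in the CA3 and mossy cell list and in the Cajal-Retzius list given further on. Of the MEF2 family, Mef2d fell by 0.39 (SE 0.07, adjusted p = 7.86e-05) but was at 0.12 under pan-neuronal scaling, and Mef2a had a log2 fold change of 0.05 (SE 0.09, adjusted p = 0.72), whose sign changed with the libraries used. Meis1, the closest paralog of Meis2, rose by 1.26 (SE 0.33, adjusted p = 0.00272) from a low level, a median of 2.92 to 6.20 CPM. It lost its call without set 2 (adjusted p = 0.0666). The ETS paralogs of Etv1 were not called, at −0.35 (SE 0.18, adjusted p = 0.137) for Etv4 and −0.18 (SE 0.10, adjusted p = 0.179) for Etv5, and both were above 0 under pan-neuronal scaling. There 7 of the 13 were higher and 1 lower, and Bcl11a was at −0.03 (adjusted p = 0.824).

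**Figure D4:**
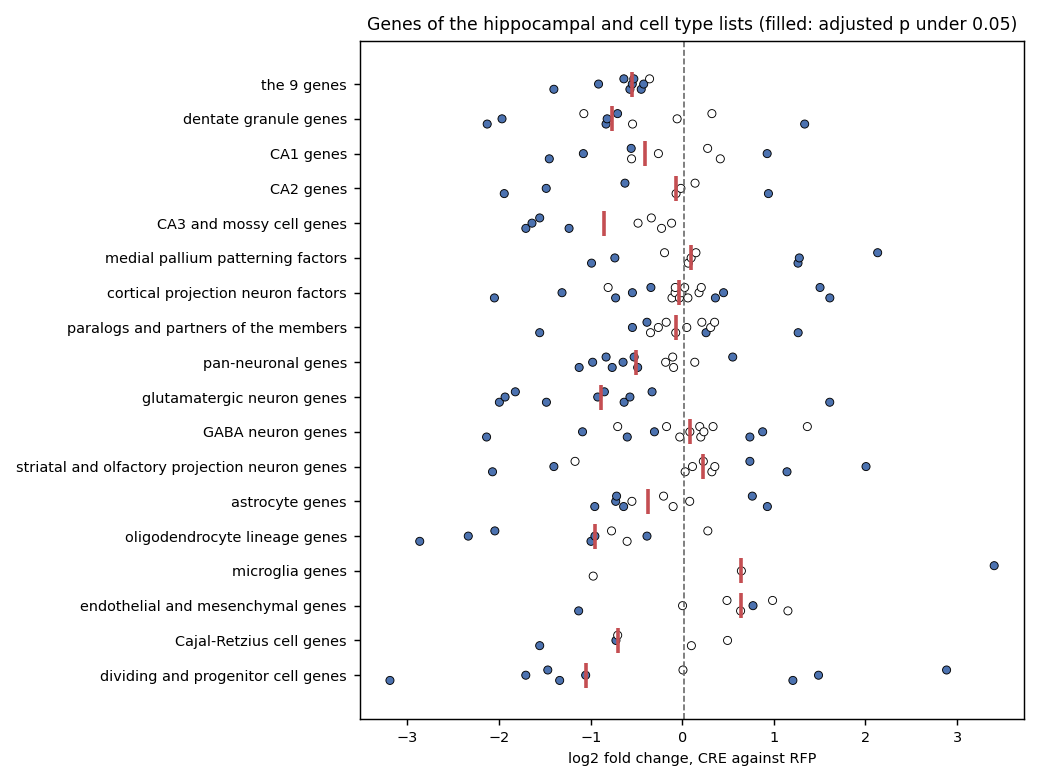
Log2 fold change, CRE against RFP (horizontal axis), of each tested gene of the 9 members and of 17 lists of hippocampal, cortical and other cell type genes. Filled points are called at adjusted p under 0.05, red bars are list medians and the dashed line is the median of all genes (0.02). Dentate, CA1 and CA3 medians lie at −0.76, −0.41 and −0.86, and those of the CA2, patterning and cortical lists lie at −0.07, 0.10 and −0.03.

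Some markers of cell types in the dish also differed between the groups, and their part in the members' values was not tested. Over all genes 17.8% were lower and 20.2% higher. Of 10 glutamatergic neuron genes 9 were lower and 1 was higher, and their summed level was 1432 to 2369 CPM in CRE against 3288 to 5530 CPM in RFP. The vesicular glutamate transporter gene Slc17a7 fell by 2.00 (adjusted p = 9.47e-13), Neurod2, a bHLH factor of excitatory neurons, fell by 1.48 (adjusted p = 1.22e-10), and Slc17a6 rose by 1.61 (adjusted p = 2.13e-06). Of 15 GABA neuron genes 4 were lower and 2 higher, with summed levels of 1657 to 3175 CPM in CRE and 2326 to 4008 CPM in RFP. The median log2 fold change of this list was 0.08, and without set 2 its counts were 3 lower and 0 higher. Of 10 astrocyte genes, which bear on Zbtb20, 4 were lower and 2 higher, and the sums overlapped (1673 to 5368 CPM in CRE, 3112 to 8024 CPM in RFP). Of 9 tested oligodendrocyte lineage genes 6 were lower and 0 higher, with sums of 447 to 1065 CPM in CRE and 611 to 1975 CPM in RFP. Without set 1 or without set 2, 0 of these genes were called, and of the astrocyte genes 3 and 0 were lower. Under pan-neuronal scaling 58.8% of all genes were called higher and 4.05% lower. The counts then were 1 higher and 5 lower for glutamatergic genes and 8 and 1 for GABA genes. They were 4 higher and 0 lower for astrocyte genes and 0 and 4 for oligodendrocyte lineage genes. The microglial markers Cx3cr1, P2ry12, Aif1, C1qa, C1qb, Tmem119 and Itgam had medians under 1 CPM over the 21 libraries, as did the endothelial markers Cldn5, Pecam1 and Cdh5.

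Across the 21 libraries, with the group means removed, the members did not vary as a block. Over their 36 pairs the Spearman correlation had a median of −0.01 and ran from −0.39 to 0.75, and it was above 0 for 18 pairs. The highest value was for Calb1 and Etv1. For 8 of the members the gene closest by this measure, out of all genes tested, was Nfib for Zbtb20 (0.93), Slc1a3 for Calb1 (0.88), Pcdh7 for Etv1 (0.87), Sf3b5 for Fezf2 (0.86), Tmem129 for Wfs1 (0.84), Nudt11 for Bcl11b (0.83), S100a6 for Prox1 (0.82) and Mamld1 for Mef2c (0.81). Next in rank were Isoc1 for Zbtb20 (0.89), Gria3 for Calb1 (0.85) and Pde1a for Etv1 (0.84). These are descriptions over libraries that also share differences in depth and base composition.

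The removed libraries stood apart by the GC content of the genes they read high, and most but not all members' levels there moved with it. CRE 1-3 and CRE 3-3 had 0.26% and 1.83% of counts on mitochondrial genes. The reference was each gene's median log2 level over the other libraries, leaving out CRE 1-3, CRE 3-3, RFP 2-4 and RFP 3-2. The rank correlation over genes between GC content and the difference from this reference was 0.75 in CRE 1-3 and 0.57 in CRE 3-3. It was 0.51 in RFP 2-4, which was kept and had 3.43% mitochondrial counts, 0.27 in CRE 3-2 and lower in the other kept libraries, where mitochondrial genes took 7.0% to 11.1%. RFP 3-2 stood apart in another way, since Rn18s-rs5, a ribosomal RNA gene, took 24.2% of its total against 0.86% to 4.06% in the other libraries kept. RFP 3-2 held the highest Zbtb20 and the lowest RFP values of Prox1 and Meis2. The kept CRE 3-2 was below the other CRE libraries compared for Prox1, Calb1, Bcl11b, Mef2c and Meis2. It was above them for Wfs1 and Fezf2 and within their range for Zbtb20 and Etv1. Counts fell on 23738 genes in CRE 3-2 and on 19730 to 20789 in those other libraries. In CRE 1-3 the GC-rich Fezf2 (107 CPM) and Bcl11b (141 CPM) were above the range of the CRE libraries compared, while the GC-poor Etv1 (0 counts), Calb1 (11.2 CPM) and Mef2c (20.8 CPM) were below it. Wfs1, at 55.4% GC, was within the CRE range in both removed libraries, where CRE 3-2 at 75.1 CPM set the top of that range. Its log2 ratio to the CRE median (CPM plus 0.1) was 0.94 in CRE 1-3 and 1.03 in CRE 3-3. The GC-poor Calb1 was within the CRE range in CRE 3-3 (64.1 CPM). In RFP 2-4 8 of 9 members were within the range of the other RFP libraries. In CRE 3-3 the same as in CRE 1-3 held for Fezf2 (59.3 CPM), Bcl11b (225 CPM), Etv1 (1.36 CPM) and Mef2c (51.2 CPM). With all 23 libraries 5 of the 9 members were called lower (11.8% of all genes), and Bcl11b (log2 fold change −0.40, adjusted p = 0.0996), Mef2c (−0.65, adjusted p = 0.0605) and Fezf2 (−0.19, adjusted p = 0.571) were not. With the trend on GC content removed in each of the 23 libraries, 8 members (16.2% of all genes) were called lower, all but Calb1. Among the 21 libraries the same correction also left 8 members lower (19.9% of all genes), and the log2 fold changes of the 9 ran from −0.41 (Calb1) to −1.44 (Etv1).

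**Figure D5:**
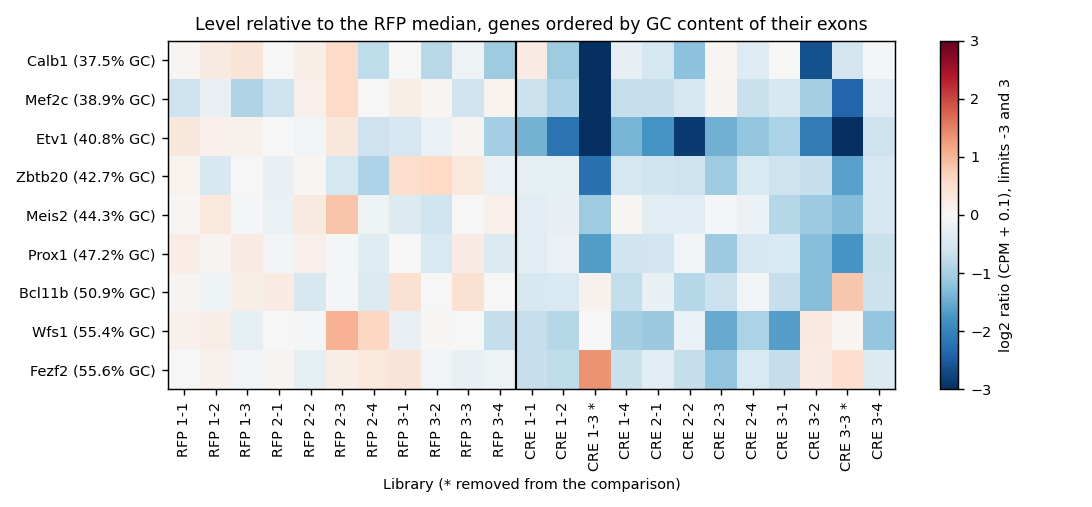
Log2 ratio of each gene's level to its RFP median (CPM plus 0.1, colour from −3 to 3) in all 23 libraries, with genes ordered from low to high GC content and the removed libraries marked by an asterisk. In CRE 1-3 and CRE 3-3 the colour turns from blue for Etv1 and Mef2c to red for Fezf2 at 55.6% GC, and in the kept CRE libraries most cells are blue.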

How the data were processed

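RNA of 23 libraries was sequenced by the authors (Illumina Stranded mRNA Prep, NovaSeq6000), who per the labels used bcl2fastq 2.20.0.422, STAR 2.7.8a on GRCm39 and featureCounts 1.5.0-p1, and deposited raw counts per gene. The strand setting and the treatment of multi-mapping reads are not given in the sources used here. Genes were named by GENCODE M39 (56323 of 56941). The methods of the study remove CRE 1-3 and CRE 3-3, leaving 10 CRE and 11 RFP libraries. From the counts, edgeR 4.0.16 (R 4.3.3; filterByExpr, TMM, robust quasi-likelihood fit, no covariates) gave fold changes, with Benjamini-Hochberg adjustment over 14482 genes. Intervals are 95% normal intervals, taking the log2 fold change divided by the root of F as standard error. CPM uses a TMM factor over all 23 libraries. Set effects came from a fit with the group by set interaction. On simulated counts for these 21 libraries the test found 20 of 66 genes given a log2 change of 0.5, 53 of 67 given 1 and 61 of 67 given 2, and called 3 unchanged ones. The simulated libraries were independent, without a set effect, and far fewer genes were changed than the 5492 called in the data. These counts therefore do not give the rates of recovery or of false calls in the data.

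The 9 members and the 17 further lists were chosen with earlier results of these data known. Text names, of each list, the called genes with the 2 smallest p in each direction, the tested paralogs and the genes most like each member, except for a few results that are not reported here. No 2 libraries agreed within sampling noise. Promoter windows end at the base before the GENCODE canonical transcript start. Alternatives were all 23 libraries, other sets of libraries, DESeq2 1.42.0, limma-voom (limma 3.58.1), other scalings, no filter, replicate blocks, sums per set, removal of a GC trend (lowess span 0.3) and leaving out each library or set.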

Additional observations from a re-analysis of the deposited data

Results flagged for a closer look

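In the 10 CRE libraries compared, 1 value each of Mef2c and Fezf2 lay far from the others by Dixon's test at the 95% level. Mef2c was at 280.2 CPM in CRE 2-3, and Fezf2 was at 49.7 CPM in CRE 3-2. Chance alone marks about 1 in 20 groups. Without CRE 2-3 the Mef2c log2 fold change was −0.54 and without CRE 3-2 that of Fezf2 was −0.69, both still called lower. Groups of more than 10 libraries, hence RFP, were not tested in this way.

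The 2 removed CRE libraries, which entered no comparison of the 21 libraries, held levels above every RFP library. Fezf2 was at 107 CPM in CRE 1-3 and 59.3 CPM in CRE 3-3, where the highest RFP library had 55 CPM. Bcl11b was at 225 CPM in CRE 3-3, where the highest RFP library had 177 CPM. Both libraries also had the highest rank correlations of level with GC content, 0.75 and 0.57. With the GC trend removed in all 23 libraries, Fezf2 had a log2 fold change of −0.45 and Bcl11b of −0.47, both called lower in CRE.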

How the results depend on the processing

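Of 153 values (9 members under 17 alternatives that leave out no single library), 133 kept direction and side of the threshold. With all 23 libraries 4049 genes and 5 members were called, and Bcl11b (−0.40), Mef2c (−0.65) and Fezf2 (−0.19) lost the call. With CRE 1-3 kept and RFP 3-2 removed in its place Mef2c (−0.57) and Fezf2 (−0.29) did, and with 19 libraries (RFP 2-4 and RFP 3-2 removed besides CRE 1-3 and CRE 3-3) Mef2c did (−0.43). Scaled to pan-neuronal counts, 9096 genes (8509 higher, 587 lower, against 2920 and 2572) and 1 member were called. Prox1 (0.0026), Calb1 (0.11), Mef2c (0.022), Meis2 (0.074), Mef2d (0.12), Etv4 (0.14), Etv5 (0.35), Zbtb45 (0.44) and Cisd2 (0.26) changed sign, and Zbtb20 (−0.047), Bcl11b (−0.16), Wfs1 (−0.32) and Fezf2 (−0.036) lost the call. Scaled to total counts (3810 higher, 1766 lower), Mef2c (−0.34) and Meis2 (−0.33) lost it. So did Mef2c without the filter on low counts (−0.45) and by sums per set (−0.47), and Meis2 by sums per set (−0.52). The cause was not tested.

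Set numbers were checked as pairs: the deviations of CRE and RFP means correlated at 0.11, 0.18 and 0.07 for equal numbers, each the highest for its number, a hint from the data and not the design. With the set as replicate block 5657 genes and the same 8 members were called, and with set sums and this block Calb1 was called too (−0.43). With the library number as replicate block 5287 genes and 8 members were called. The interaction of group and set was called for 45 genes, for 0 with all 23 libraries, 1 with RFP 3-2 removed in place of CRE 1-3 and 416 without the filter.

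Leaving out 1 library or set at a time gave 5 to 8 members called, and log2 fold changes of −0.67 to −0.34 for Zbtb20, −0.54 to −0.36 for Mef2c, −0.50 to −0.31 for Meis2, −1.22 to −0.62 for Wfs1, −0.019 to 0.11 for Mef2a, −0.053 to 0.67 for Pbx3, −0.31 to 0.11 for Zbtb45 and −0.14 to 0.56 for Prox2. Mef2a, near 0, also changed sign with all 23 libraries (−0.083), RFP 3-2 removed in place of CRE 1-3 (−0.081), 19 libraries (−0.025), set sums (−0.0099, and −0.016 with block) and GC trend removed with block (−0.0063). Zbtb45 changed sign with all 23 libraries (0.37, and 0.13 with GC trend removed), RFP 3-2 removed in place of CRE 1-3 (0.075) and total counts (0.025), and Prox2 with limma-voom (−0.070) and with the library number (−0.24) or both numbers (−0.31) as block.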

Other observations

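Genes of cells outside the hippocampal lists also differed between the groups after TMM scaling. Among markers of dividing and progenitor cells 3 of 9 tested genes were higher and 5 lower. Nes, the intermediate filament nestin, rose from a median of 126 to 998 CPM without overlap of the groups (log2 fold change 2.89, SE 0.13, adjusted p = 4.3e-15), and Pax6, a progenitor homeobox factor, rose by 1.49 (SE 0.20, adjusted p = 8.32e-07). Hes5, a Notch target, fell by 3.19 (SE 0.36, adjusted p = 4.03e-08). Among 11 tested genes of striatal and olfactory projection neurons, a list that includes the member Etv1, 3 were higher and 2 lower. Tshz1, a zinc-finger factor, rose from a median of 34.2 to 73.7 CPM without overlap (log2 fold change 1.14, SE 0.12, adjusted p = 8.28e-09), and Ppp1r1b (DARPP-32) fell by 2.07 (SE 0.28, adjusted p = 1.02e-06).

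The calretinin and Ndnf genes were the 2 of 5 tested Cajal-Retzius markers that were lower, and 0 were higher. Ndnf lost its call without CRE 1-4, without RFP 3-1 and without set 1 or set 2 (adjusted p up to 0.193). Of 7 tested endothelial and mesenchymal genes 1 was higher and 1 lower, and of 3 tested microglial genes 1 was higher. The higher Pdgfrb lost its call without CRE 3-4 and without set 3 (adjusted p up to 0.220). The lower Kdr lost it without CRE 1-2, RFP 1-1, RFP 1-3 or RFP 2-2 and without set 1 (up to 0.333). The microglial gene was Tmem119, with a median under 1 CPM. With all 23 libraries 2 microglial genes were tested and 0 called.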
